A study of Mus musculus with 10 samples.

Results

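The cytosolic ribosomal protein genes were described across 10 RNA sequencing libraries of brown adipocytes, a kind of fat cell specialised in producing heat. A gene was a member when its symbol was Rpl or Rps followed by a number, with a trailing a, x, l or l1 allowed, or when it was Rplp0, Rplp1, Rplp2 or Rpsa. Kinases and symbols ending in -ps or -rs were left out. This gave 81 members of 24640 rows in the table of all genes: 32 of the small subunit, 46 of the large subunit and the 3 of the P stalk. The libraries form 5 groups of 2, all of C57BL/6 cells. They are BML-260 for 3 days, its solvent control DMSO for 3 days, BML-260 for 1 day, ISO for 1 day and DMSO for 1 day. BML-260 is a small molecule known as an inhibitor of the phosphatase Dusp22, and the labels do not spell out ISO. The labels name no allele or transgene. Nor do they say if the pair of libraries in a group had different cultures or mice as their source, so a p-value here reflects library-to-library spread that could be technical alone.

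The cytosolic ribosome makes nearly all proteins of a cell. Its small subunit reads the messenger RNA, its large subunit joins the amino acids, and the P stalk, built from Rplp0, Rplp1 and Rplp2, recruits the elongation factors. Ribosomal protein mRNAs are short and abundant. Most begin with a run of pyrimidines, the TOP motif, through which mTORC1 signalling controls their translation. Mammalian genomes also hold many processed pseudogenes of these genes, intronless copies made by reverse transcription of the mRNA, and reads from a gene and from a near-identical copy are hard to tell apart.

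The copies come first because they decide what a row of the table holds. By a search of GENCODE M21 transcripts (GRCm38), 72 of the 81 members had at least 1 row matched as a copy, 599 copies in all. Rpl32l and Rps12l1 are members and also matched as copies, and the other 597 rows held 48.5% of the counts of members and copies together. The treatment of reads that match several rows is not given. The following stretches of coding sequence, 60 bases each and written 5′ to 3′, show the pairs where they are least alike. Each is the stretch without gaps that held the most differences, the first on ties. Capitals mark the bases at which a pair differs. Rps6 is the small subunit protein phosphorylated downstream of mTORC1, and its coding sequence was identical over all 747 bases to that of Rps6-ps4. Rpl5 binds the 5S ribosomal RNA, and 10 of its 891 coding bases differed from Rpl5-ps1. Rpl23a sits at the exit of the peptide tunnel, and 1 of its 468 coding bases differed from Gm10335. Rpl32l is a member by its symbol, but GENCODE lists it as a processed pseudogene, and 16 of 404 aligned bases differed from Rpl32, of which 4 fall in the stretch shown.
Rps6 and Rps6-ps4: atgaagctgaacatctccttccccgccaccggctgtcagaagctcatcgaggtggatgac
Rpl5: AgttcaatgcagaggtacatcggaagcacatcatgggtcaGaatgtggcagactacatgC
Rpl5-ps1: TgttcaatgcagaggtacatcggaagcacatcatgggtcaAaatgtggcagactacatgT
Rpl23a: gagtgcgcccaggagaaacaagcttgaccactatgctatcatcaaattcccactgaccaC
Gm10335: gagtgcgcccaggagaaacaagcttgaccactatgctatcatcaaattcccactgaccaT
Rpl32: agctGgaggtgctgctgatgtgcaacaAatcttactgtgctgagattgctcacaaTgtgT
Rpl32l: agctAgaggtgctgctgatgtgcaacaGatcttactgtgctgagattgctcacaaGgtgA

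Over the 10 libraries the row of Rps6, a gene with introns on chromosome 4, held 3118 counts, and that of its intronless copy Rps6-ps4 on chromosome 2 held 59298. Rpl5, on chromosome 5, held 23902 counts and Rpl5-ps1 on chromosome 1 held 86617. Rpl23a held 3360 counts and Gm10335 held 113479. In 38 members the own row held under 50% of the counts of member and copies, and in 22 under 10%. In 31 members it held over 90%, among them Rpl41, Rpl4, Rpl8, Rpl3, Rps27a, Rps27l and Rpl7l1. The 31 include Rpl32l and Rps12l1, which are themselves matched as copies and were by design given none of their own. Counts of members called are therefore given for the rows alone and with the counts of all matched copies added to the member. The value of a single member is that of its row unless copies are said to be summed, and where the own row held under 90% of the counts both values are given. That sum leaves Rpl32l and Rps12l1 as copies of Rpl32 and Rps12, so it has 79 members.

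**Figure D1:**
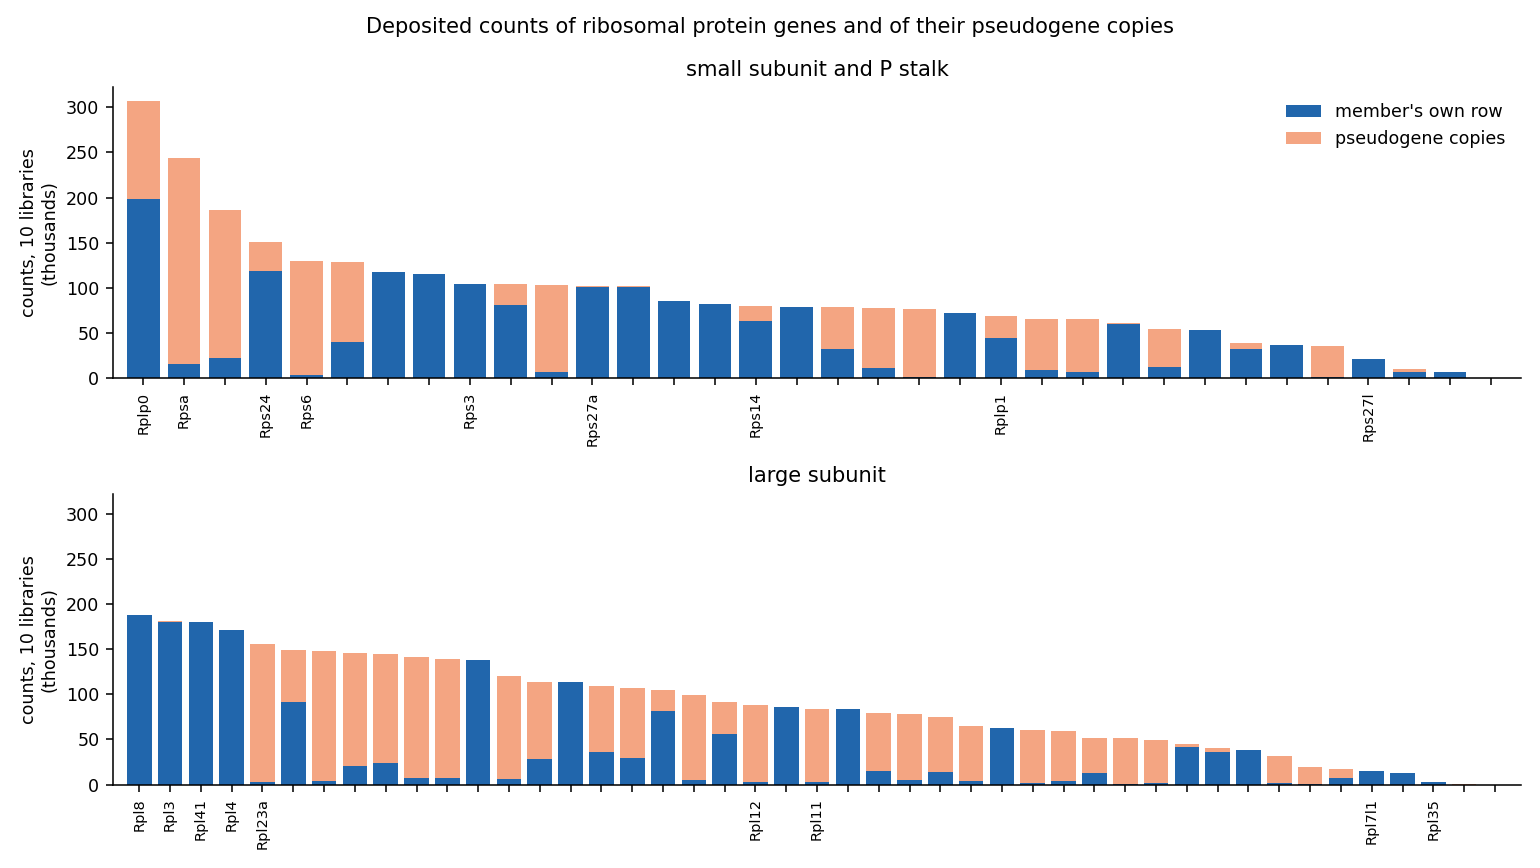
Counts summed over the 10 libraries for each ribosomal protein gene, with the member's own row in blue and the rows matched as its pseudogene copies in orange (vertical axis, counts as labelled on the plot; some of the genes named in the text are labelled). The own row holds nearly all counts of Rpl8, Rpl3, Rpl41 and Rpl4 and a small part for Rps6, Rpl23a and Rpl11.

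Promoter sequences of 300 bases from RefSeq on GRCm38.p6 were found for 60 of the 81 members. The letters CTTTC, a short form of the pyrimidine run, stood on the gene's strand within 50 bases of the RefSeq start in 51.67% of these members and in 14.47% of 26965 other genes. The longer CTCTTTC, which contains CTTTC, stood there in 12 of the 60 members and 1.58% of other genes. CCGGAAGT, the letters bound by ETS factors such as GABP, stood on either strand of the 300 bases in 12 of the 60 members and 4.27% of other genes. A match is a description of the letters and not a shown site. The windows below, 30 bases each on the gene's strand, have CTCTTTC in capitals. In Rpl35 and Rpl28 it begins at the first base of the gene as RefSeq places it, while the GENCODE genes start further upstream.
Rpl35 (chr2:39005113-39005142, minus strand): cccgccctttcCTCTTTCtctcgaaccagg
Rpl28 (chr7:4792954-4792983, plus strand): ctctcgtgtctCTCTTTCcgtctccggccg
Rps15a (chr7:118116142-118116171, minus strand): cccggcccactCTCTTTCtgccatcttccc
Rpl5 (chr5:107900497-107900526, plus strand): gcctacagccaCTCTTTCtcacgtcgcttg

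Library totals ran from 16955918 to 21185675 counts. All 12 markers of brown adipocytes were tested genes. Their summed level was 8439 and 8270 CPM (counts scaled to a common library size, with TMM factors) with BML-260 for 3 days, 8204 and 8062 with DMSO for 3 days, 14000 and 14560 with BML-260 for 1 day, 7790 and 7475 with ISO and 10770 and 10670 with DMSO for 1 day. The 9 preadipocyte and fibroblast markers with a row summed to 2459 and 2415 CPM with BML-260 for 3 days, 2803 and 3082 with DMSO for 3 days, 1064 and 1003 with BML-260 for 1 day, 3551 and 3162 with ISO and 1427 and 1589 with DMSO for 1 day. The sum of these markers was thus lower with BML-260 than with DMSO at both times and higher with ISO and with time. Its most abundant genes can set such a sum. The part of these markers in the results below was not tested. In whole-culture RNA, fewer cells of a type and less RNA per cell cannot be told apart. The summed endothelial, macrophage and skeletal muscle markers stayed at or under 7.24 CPM in every library, and in each of these lists 1 gene passed the filter on low counts. All 6 endothelial markers had a row, but only 4 of 7 macrophage and 2 of 6 skeletal muscle markers did. Low sums of the latter 2 lists therefore do not show that such cells were absent. The 8 smooth muscle and pericyte markers summed to 239 and 221 CPM with BML-260 for 3 days, 356 and 370 with DMSO for 3 days, 218 and 231 with BML-260 for 1 day, 345 and 308 with ISO and 303 and 305 with DMSO for 1 day.

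The members held 1.91% ± 0.01 of a library's counts with BML-260 for 3 days and 1.82% ± 0.01 with DMSO for 3 days (SD, n = 2 each). They held 2.04% ± 0.06 with BML-260 for 1 day, 1.89% ± 0.04 with ISO and 1.97% ± 0.02 with DMSO for 1 day. Both BML-260 libraries lay above both DMSO libraries at each time, and both ISO libraries lay below both DMSO libraries of 1 day. With copies added the shares were 3.70% ± 0.05 against 3.52% ± 0.04 at 3 days, and 3.99% ± 0.09, 3.67% ± 0.05 and 3.82% ± 0.04 with BML-260, ISO and DMSO at 1 day. An exact permutation test of 2 libraries against 2 cannot reach 0.05, so the shares were not tested.

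**Figure D2:**
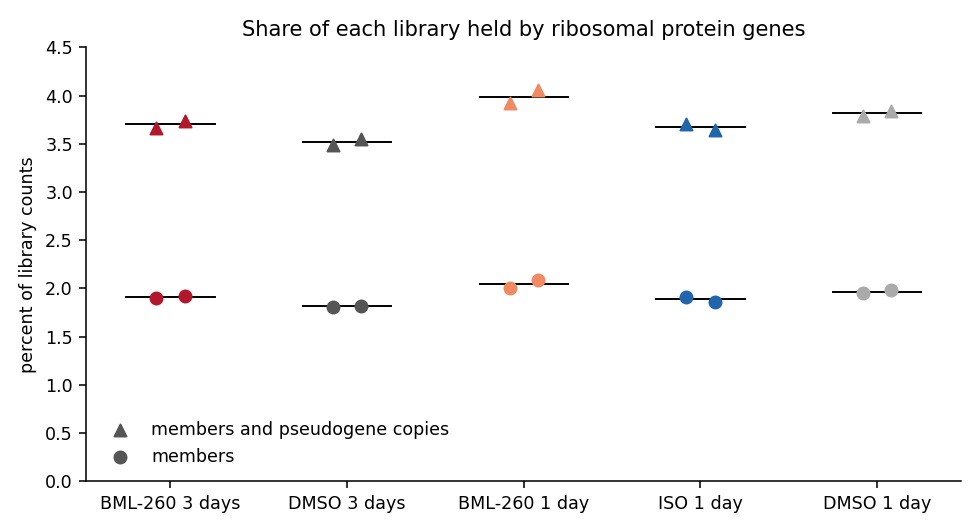
Percent of each library's counts held by the 81 ribosomal protein genes (circles) and by these genes with their pseudogene copies (triangles), with each group's mean as a line. The circles lie between 1.8% and 2.1%, highest with BML-260 for 1 day and lowest with DMSO for 3 days.

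Levels differed widely between members. Per kilobase of the median length of a gene's GENCODE transcripts and with copies summed, the highest were Rpl41, the smallest ribosomal protein, at 1839 CPM per kb, Rps24 at 1538 and Rpl23a at 1496, as means of the 10 libraries. The place of Rps24 depends on the length used: with the 1613 bases of the transcript from which its coding sequence was taken, in place of the median of 525, a length tried after seeing the data, it came to 501 CPM per kb. The lowest were Rpl3l, the form of Rpl3 used in heart and skeletal muscle, at 0.103, Rpl26 at 1.77 and Rps27 at 6.57 CPM per kb. Rps27 had 260 counts in all 10 libraries together, while its paralog Rps27l had 21717. A low row does not show a low mRNA level here, since 21904 of the 24640 rows matched GENCODE by symbol, the others could hold copies, and the treatment of reads with several matches is not given. Rpl3l, Rpl26 and Rps12l1 did not pass the filter on low counts, which left 78 members tested, each under a fit over all 15212 genes. With copies summed, 78 of 79 members passed. Changes over the 5 groups were small against these differences in level. With copies summed, the group means of Rpl7l1 differed by at most 1.57-fold, those of Rps27l by 1.51-fold and those of Rpl41 by 1.47-fold.

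BML-260 for 3 days was compared with DMSO for 3 days to see what the compound did over the longer exposure. Of 78 members, 33 rose and 1, Rpl7l1, fell by edgeR's quasi-likelihood test (adjusted p under 0.05 over all genes). The rises were small: the median of the members was 0.13 on the log2 scale, against -0.02 for all genes. Among all genes 17.3% were called higher and 18.3% lower. With copies summed 40 members rose and 1 fell, where 17.7% of all genes were called higher. The count of 33 came to 17 without BML-260 3 days replicate 1, to 20 without replicate 2, and to 17 with scaling by library totals or by the upper quartile.

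In the small subunit 16 of 31 members rose at 3 days with BML-260 and none of the rest was called lower. Rps14 had 366 and 342 CPM with BML-260, against 302 and 309 CPM with DMSO. Its log2 fold change was 0.21 (SE 0.06, adjusted p = 0.0052) on its row and 0.22 (adjusted p = 0.0021) with copies summed, and the row missed the threshold without BML-260 3 days replicate 1 (0.17, adjusted p = 0.086). The groups did not overlap. Rps6 is the case in which the copies matter: its row alone gave 0.04 (SE 0.10, adjusted p = 0.79). With its 13 copies summed it had 769 and 757 CPM with BML-260, against 677 and 662 CPM with DMSO, and rose by 0.19 (SE 0.04, adjusted p = 6e-04). Rpsa, the laminin receptor protein of the small subunit, went the other way: its row rose by 0.16 (adjusted p = 0.047), and with copies summed it was at 0.04 (SE 0.04, adjusted p = 0.50). The row was at 0.07 (adjusted p = 0.52) without BML-260 3 days replicate 1 and at 0.14 (adjusted p = 0.18) without DMSO 3 days replicate 2, and DESeq2 gave it an adjusted p of 0.075. Rps27a, made as a fusion with ubiquitin, rose by 0.14 (SE 0.05, adjusted p = 0.018), and without BML-260 3 days replicate 2 it was at 0.11 (adjusted p = 0.17).

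In the large subunit 15 of 44 members rose at 3 days and Rpl7l1 fell. Rpl13a, which also has a role outside the ribosome in silencing inflammatory mRNAs, had 496 and 515 CPM with BML-260, against 426 and 425 CPM with DMSO. Its log2 fold change was 0.25 (SE 0.04, adjusted p = 7.3e-05), the smallest p of a rise among these members, and 0.23 (adjusted p = 0.00015) with copies summed. Rpl17, near the tunnel exit, had 320 and 312 CPM with BML-260 and 276 and 269 CPM with DMSO, a rise of 0.21 (SE 0.04, adjusted p = 0.00042), or 0.22 (adjusted p = 0.00021) with copies summed. Rpl38, a small protein known for its part in translating Hox mRNAs in the mouse embryo, had 213 and 220 CPM with BML-260 and 183 and 192 CPM with DMSO, a rise of 0.21 (SE 0.05, adjusted p = 0.00091). Rpl36 rose by 0.24 (SE 0.06, adjusted p = 0.0024) on its row and by 0.17 (SE 0.05, adjusted p = 0.0057) with copies summed. The other rows of large rise depended on the copies. Rpl12, with 3.82% of the summed counts in its own row, rose by 0.35 (SE 0.10, adjusted p = 0.0086) alone, with an adjusted p of 0.083 without BML-260 3 days replicate 1 and 0.061 without DMSO 3 days replicate 2, and was at 0.10 (SE 0.04, adjusted p = 0.077) with copies summed. Rpl10 rose by 0.28 alone and by 0.12 (adjusted p = 0.032) summed. Rpl11, called in neither form, was at -0.15 (SE 0.10, adjusted p = 0.27) on its row and at 0.09 (SE 0.04, adjusted p = 0.092) with copies summed. Of the large proteins Rpl3 and Rpl5, Rpl3 was at 0.06 (SE 0.04, adjusted p = 0.26). Rpl5 rose by 0.13 (SE 0.05, adjusted p = 0.030), or by 0.19 (SE 0.05, adjusted p = 0.0017) with copies summed. Rpl3 and Rpl5 were not tested against each other. Rpl5 lost its call without BML-260 3 days replicate 1 (0.10, adjusted p = 0.20), and without DMSO 3 days replicate 1 or replicate 2 it was at 0.16 (adjusted p = 0.059 and 0.052).

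Of the P stalk, Rplp1 had 241 and 221 CPM with BML-260 for 3 days, against 186 and 203 CPM with DMSO for 3 days. It rose by 0.25 (SE 0.05, adjusted p = 0.00049) on its row and by 0.18 (SE 0.04, adjusted p = 0.0017) with copies summed. Rplp0, the base of the stalk, rose by 0.13 (SE 0.04, adjusted p = 0.028), and by 0.13 (adjusted p = 0.012) with copies summed. Its row without BML-260 3 days replicate 1, without replicate 2 or without DMSO 3 days replicate 2 was at 0.11 to 0.14 with an adjusted p of 0.061 to 0.16. Rplp2 was at 0.06 (SE 0.07, adjusted p = 0.55), or 0.04 (adjusted p = 0.65) with copies summed.

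Rpl7l1 was the single member that fell at 3 days. This paralog of Rpl7, known in human cells from precursors of the large subunit, had 61.9 and 61.5 CPM with BML-260, against 73.5 and 75.8 CPM with DMSO. The groups lay far apart for their spread, and the log2 fold change was -0.27 (SE 0.05, adjusted p = 0.00014), and -0.27 with its 2 copies summed. Rpl7 itself, a protein of the large subunit with 729 and 747 CPM against 711 and 687 CPM, was at 0.08 (SE 0.04, adjusted p = 0.16). In the authors' deposited table for this comparison 31 members are listed, 30 with a positive log2 fold change, and Rpl7l1 is listed at -0.25. That table holds 12.9% of all rows of the count table.

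BML-260 and DMSO were also compared after 1 day. Of 78 members 18 rose and 0 fell, at a median of 0.08 on the log2 scale against 0.00 for all genes, and 9.32% of all genes were called higher and 8.62% lower. DESeq2 gave 16 higher and 0 lower, and 27 members had an unadjusted p under 0.05 by edgeR in either direction. With copies summed 32 rose and 0 fell, 46 having an unadjusted p under 0.05 in either direction, where 9.67% of all genes were called higher and 8.73% lower. Counts at an unadjusted p, here and below, stand without the share of all genes at that threshold. They are therefore no result about the members. Counts of members by DESeq2, here and below, stand beside shares of all genes called by edgeR. Over all genes DESeq2 called 767 lower at 1 day, where edgeR called 1311. The median of the members with copies summed was 0.11, against 0.12 at 3 days. The 18 came to 9 without BML-260 1 day replicate 1, 10 without BML-260 1 day replicate 2, 8 without DMSO 1 day replicate 1 and 5 without DMSO 1 day replicate 2. Fitting only the groups compared gave 10, and scaling by library totals gave 11. The count of all genes called higher also fell without BML-260 1 day replicate 1 and without DMSO 1 day replicate 2. The members' count also fell without the other library of each of these 2 groups. There the count of all genes called higher moved by a smaller factor. In the other comparisons too, leaving out a single library could lower the count over all genes. If the members lost calls more readily than other genes was not tested.

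Among small subunit members 7 of 31 rose at 1 day. Rps27a had 586 and 603 CPM with BML-260, against 527 and 486 CPM with DMSO. Its log2 fold change of 0.23 (SE 0.05) had the smallest adjusted p of the members, 0.00059. Rps27l, a paralog of Rps27 that is a known p53 target, had 140 and 154 CPM with BML-260 and 127 and 123 CPM with DMSO. It rose by 0.23 (SE 0.05, adjusted p = 0.0018), and by 0.17 (adjusted p = 0.067) without BML-260 1 day replicate 2. Rps15a had 58.5 and 53.6 CPM with BML-260, against 44.8 and 50.3 CPM with DMSO, a rise of 0.23 (SE 0.07, adjusted p = 0.024) on its row and of 0.22 (SE 0.05, adjusted p = 0.0011) with 11 copies summed. The row alone lost the call without BML-260 1 day replicate 1 (0.17, adjusted p = 0.21) and without DMSO 1 day replicate 1 (0.16, adjusted p = 0.24). Rps6 rose by 0.16 (SE 0.04, adjusted p = 0.0064) with copies summed, and its row was at 0.13 (SE 0.10, adjusted p = 0.38).

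Of the large subunit 11 of 44 members rose at 1 day. Rpl35, which lies at the tunnel exit, had the largest log2 fold change at 0.38 (SE 0.10, adjusted p = 0.011), with 19.5 and 18.1 CPM with BML-260, against 13.5 and 15.4 CPM with DMSO. Rpl35 is 1 of 20 members, Rps27a and Rpl5 among them, whose exons overlap another gene's on the opposite strand. Its exons overlap those of Arpc5l and Wdr38 on the opposite strand, and its adjusted p was 0.093 without BML-260 1 day replicate 1 and 0.12 without DMSO 1 day replicate 1. Rpl7 had 796 and 813 CPM with BML-260 and 730 and 694 CPM with DMSO, a rise of 0.18 (SE 0.04, adjusted p = 0.0042), or 0.14 (adjusted p = 0.089) without DMSO 1 day replicate 2. Rpl38 rose by 0.18 (SE 0.05, adjusted p = 0.0058), with an adjusted p of 0.066 without BML-260 1 day replicate 1 and 0.12 without DMSO 1 day replicate 2. Rpl5 and Rpl11, which together with the 5S RNA bind the p53 inhibitor Mdm2 when ribosome assembly is disturbed, rose by 0.17 (SE 0.05, adjusted p = 0.0076) and 0.18 (SE 0.04, adjusted p = 0.0028) with copies summed. On their rows Rpl5 rose by 0.17 (adjusted p = 0.013) and Rpl11 was at 0.14 (SE 0.10, adjusted p = 0.38). None of the 3 P stalk genes was called, with values from -0.02 to 0.07 on rows and from -0.01 to 0.14 with copies summed. The row Rpl32l rose by 0.19 (SE 0.05, adjusted p = 0.013), while its parent Rpl32 was at 0.09 (SE 0.04, adjusted p = 0.16), or 0.11 (adjusted p = 0.060) with copies summed. Rpl32l had an adjusted p of 0.23 without BML-260 1 day replicate 1, 0.080 without DMSO 1 day replicate 1 and 0.056 without DMSO 1 day replicate 2. In the authors' deposited table for this comparison 8 members are listed, all with a positive log2 fold change, and the table holds 4.61% of all rows.

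The effects of BML-260 at 3 days and at 1 day share no libraries. On rows alone 12 members rose at both times, 36.4% of the 33 that rose at 3 days and 66.7% of the 18 that rose at 1 day. Over all genes 897 rose at both, 34.2% and 63.3% of those that rose at each time, so the members' shares lie near those of all genes. The 12 members were Rpl4, Rpl5, Rpl13a, Rpl17, Rpl37, Rpl38, Rps3, Rps7, Rps15a, Rps24, Rps27a and Rps27l. With copies summed 18 rose at both, 45.0% of 40 and 56.2% of 32, against 34.9% and 63.8% over all genes. Both numbers came to 4 without BML-260 1 day replicate 2 and to 4 without DMSO 1 day replicate 2. When the effect at 3 days minus that at 1 day was tested itself, 1 of 78 members was called, Rpl7l1 at -0.30 (SE 0.07, adjusted p = 0.008), where 4.51% of all genes were called lower and 3.93% higher. Its level at 1 day was 96.9 and 96.2 CPM with BML-260, against 95.5 and 94.2 CPM with DMSO, a log2 fold change of 0.03 (SE 0.05, adjusted p = 0.78). The difference had an adjusted p of 0.079 without DMSO 3 days replicate 2 and of 0.051 by DESeq2. With copies summed the members called included Rpl7l1 at -0.30 and Rpl39 at -0.22 (adjusted p = 0.035) downward and Rps16 at 0.22 (adjusted p = 0.038) upward, where 4.65% of all genes were called lower and 4.12% higher. Rpl7l1 stayed called with copies summed without each library in turn, at an adjusted p of at most 0.049. Rpl39 (-0.28 to -0.16) and Rps16 (0.15 to 0.30) each lost the call without BML-260 1 day replicate 1, DMSO 1 day replicate 2 or any 1 of the 4 libraries of 3 days. By edgeR 14 members on rows had an unadjusted p under 0.05 for this difference, again without the share of all genes at that threshold. DESeq2 called 0 members. The number called higher moved between 0 and 7 on rows alone when single libraries were left out, with 7 without BML-260 1 day replicate 2, and between 0 and 8 with copies summed.

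**Figure D3:**
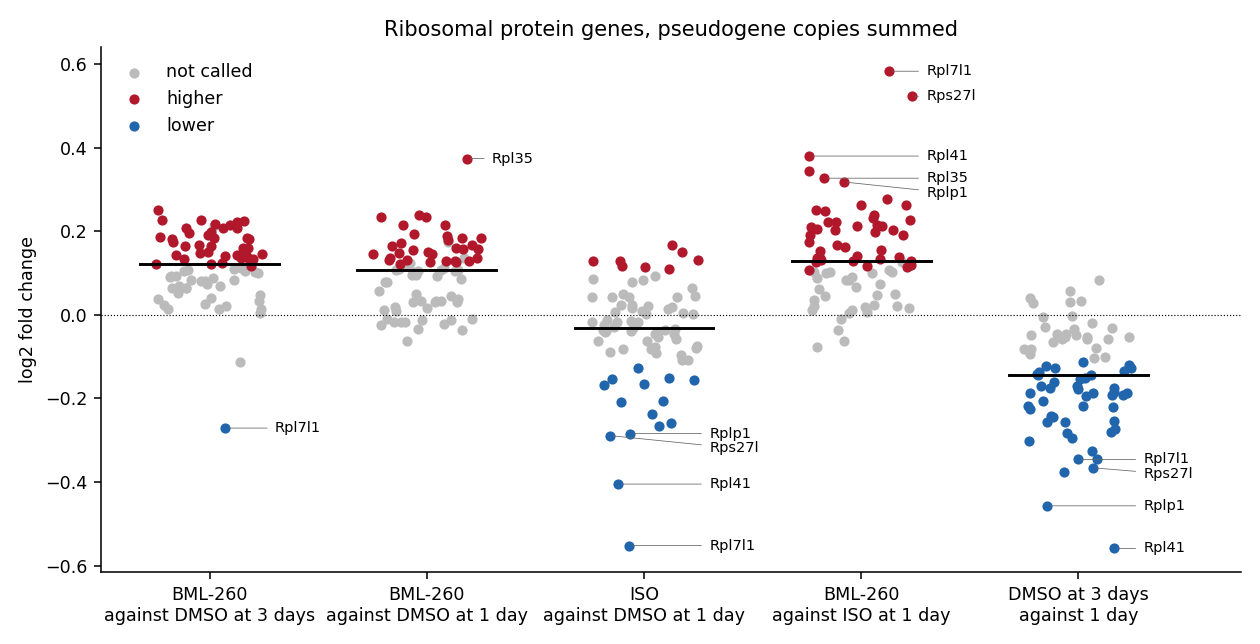
Log2 fold changes of the 76 ribosomal protein genes with at least 10 CPM, pseudogene copies summed, in 5 comparisons (1 point per gene, line at the median, red for called higher and blue for called lower by edgeR). The medians are positive for BML-260 against DMSO and against ISO, close to 0 for ISO and negative for DMSO over time, and Rpl7l1 is the lowest point for BML-260 at 3 days and for ISO.

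ISO and DMSO at 1 day gave changes in both directions. Of 78 members 6 rose and 14 fell, at a median of -0.03 on the log2 scale, while 21.4% of all genes were called higher and 20.3% lower. With copies summed 8 rose and 15 fell, where 21.7% of all genes were called higher and 20.6% lower. In both forms the share of members that fell lay near that of all genes, and the share that rose lay under it. The split between directions depended on the scaling, with 3 higher and 24 lower under upper-quartile scaling and 5 higher and 21 lower under library totals. It was 5 and 8 by DESeq2. The 14 lower came to 6 without ISO 1 day replicate 2 and to 9 without DMSO 1 day replicate 2, and the 6 higher came to 2 without DMSO 1 day replicate 2.

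The falls with ISO were led by Rpl7l1, at 65.7 and 63.5 CPM with ISO, against 95.5 and 94.2 CPM with DMSO. Its log2 fold change was -0.55 (SE 0.05, adjusted p = 1.6e-09), the largest of any member. Rpl41 had 886 and 879 CPM with ISO and 1152 and 1183 CPM with DMSO, a change of -0.40 (SE 0.05, adjusted p = 2e-07). Rplp1 had 219 and 223 CPM with ISO, against 269 and 272 CPM with DMSO, a change of -0.29 (SE 0.05, adjusted p = 5.6e-05), or -0.28 (adjusted p = 7.6e-06) with copies summed. Rps27l had 103 and 102 CPM with ISO and 127 and 123 CPM with DMSO, a change of -0.29 (SE 0.05, adjusted p = 6.9e-05). In these 4 genes the groups lay well apart and the call held without each library in turn. Rps29, a small zinc-binding protein, fell by 0.23 (SE 0.05, adjusted p = 0.00036). Rpsa fell by 0.22 (SE 0.06, adjusted p = 0.0045) on its row, with an adjusted p of 0.077 without ISO 1 day replicate 2, and by 0.17 (SE 0.04, adjusted p = 0.0015) with copies summed. Rpl27 fell by 0.45 on its row (adjusted p = 0.014), but that row held 3.25% of the summed counts and lost the call without ISO 1 day replicate 2 (-0.26) or DMSO 1 day replicate 2 (-0.23). With copies summed it was at -0.07 (SE 0.04, adjusted p = 0.18). Rps16 fell by 0.36 on its row (adjusted p = 0.049), with values of -0.25 and -0.20 without those libraries, and by 0.15 (SE 0.05, adjusted p = 0.013) with copies summed.

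Both subunits had members that rose with ISO. Rpl4, one of the largest, which lines the peptide tunnel, had 968 and 956 CPM with ISO, against 883 and 872 CPM with DMSO, a log2 fold change of 0.13 (SE 0.04, adjusted p = 0.010). Rpl8, close to the site of peptide bond formation, had 1068 and 1033 CPM with ISO and 936 and 934 CPM with DMSO, a change of 0.17 (SE 0.04, adjusted p = 0.0017). Rpl5 had 135 and 132 CPM with ISO, against 119 and 115 CPM with DMSO, a change of 0.19 (SE 0.05, adjusted p = 0.0019), or 0.15 (adjusted p = 0.008) with copies summed. Rps9, at 0.13 (SE 0.04, adjusted p = 0.013), and Rps27a, at 0.13 (SE 0.05, adjusted p = 0.023), also rose, and Rpl12 rose by 0.31 on its row and by 0.11 (SE 0.04, adjusted p = 0.048) with copies summed. The calls of Rpl4, Rps9 and Rps27a were lost with upper-quartile scaling (0.08 each) and without DMSO 1 day replicate 2, where their adjusted p was 0.054, 0.055 and 0.30. Rps9 and Rps27a also lost theirs without ISO 1 day replicate 1 (adjusted p = 0.14 and 0.13).

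BML-260 and ISO, both at 1 day, were set against each other directly. Of 78 members 34 were higher and 1 lower with BML-260, at a median of 0.11 on the log2 scale, and 21.6% of all genes were called higher and 22.8% lower. With copies summed 45 were higher and 0 lower, where 21.9% and 23.0% of all genes were called, and 53 had an unadjusted p under 0.05 in either direction. DESeq2 on rows gave 24 higher and 0 lower. The 34 came to 18 without BML-260 1 day replicate 2 and to 16 without ISO 1 day replicate 2. Rpl7l1 was 0.58 higher (SE 0.05, adjusted p = 4.6e-10) and Rps27l 0.52 higher (SE 0.05, adjusted p = 5.3e-09) with BML-260. Rpl41 was 0.38 higher (SE 0.05, adjusted p = 4.8e-07) and Rplp1 0.32 higher (SE 0.05, adjusted p = 1.6e-05), and Rplp1 was also 0.32 higher with copies summed. Rpl29 was 0.31 higher (SE 0.06, adjusted p = 0.00039; 0.28 with copies summed), Rps25 0.30 (SE 0.07, adjusted p = 0.001; 0.25 with copies summed) and Rpl35 0.33 (SE 0.10, adjusted p = 0.0096), the last with an adjusted p of 0.082 without BML-260 1 day replicate 1. Rpl27 was 0.42 higher on its row and 0.22 higher (SE 0.04, adjusted p = 0.00018) with copies summed. The row was at 0.23 (adjusted p = 0.31) without ISO 1 day replicate 2, at 0.32 (adjusted p = 0.17) without BML-260 1 day replicate 2, and had an adjusted p of 0.083 by DESeq2. Rpl22l1, a paralog of the RNA-binding protein Rpl22, had 79.9 and 70.8 CPM with BML-260, against 69.2 and 61.8 CPM with ISO, a difference of 0.20 (SE 0.07, adjusted p = 0.025). It was not called without BML-260 1 day replicate 1 (0.11, adjusted p = 0.30) or ISO 1 day replicate 2 (0.12, adjusted p = 0.32). Rpl22 was at 0.07 (SE 0.04, adjusted p = 0.25). The member lower with BML-260 was Rps27, at 1.06 and 1.06 CPM with BML-260 and 1.62 and 1.91 CPM with ISO, a difference of -0.75 (SE 0.29, adjusted p = 0.037). It was not called with copies summed (-0.52, adjusted p = 0.097), by DESeq2 (adjusted p = 0.19) or without either BML-260 library or ISO 1 day replicate 2. This comparison shares the BML-260 libraries with that against DMSO at 1 day and the ISO libraries with that of ISO.

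With DMSO alone, 3 days against 1 day, the members moved downward. Of 78 members 0 rose and 37 fell, at a median of -0.13 on the log2 scale against 0.01 for all genes, where 18.1% of all genes were called higher and 16.8% lower. With copies summed 0 rose and 47 fell, where 17.1% of all genes were called lower. Scaling by library totals gave 1 higher, DESeq2 gave 0 higher and 30 lower, and 45 members had an unadjusted p under 0.05 by edgeR (50 with copies summed). The 37 came to 24 without DMSO 1 day replicate 2 and to 24 without DMSO 3 days replicate 2. In the small subunit 19 of 31 fell, in the large subunit 17 of 44, and of the P stalk Rplp1.

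Rpl41 fell most, at 788 and 800 CPM with DMSO for 3 days, against 1152 and 1183 CPM for 1 day, a log2 fold change of -0.56 (SE 0.05, adjusted p = 1.7e-09). Rplp1 had 186 and 203 CPM at 3 days and 269 and 272 CPM at 1 day, a change of -0.47 (SE 0.05, adjusted p = 6.5e-08), or -0.46 (adjusted p = 5.8e-09) with copies summed. Rps27l had 98.4 and 96.3 CPM at 3 days, against 127 and 123 CPM at 1 day, a change of -0.36 (SE 0.05, adjusted p = 4.6e-06). Rpl7l1 had 73.5 and 75.8 CPM at 3 days and 95.5 and 94.2 CPM at 1 day, a change of -0.35 (SE 0.05, adjusted p = 4.1e-06). In each of the 4 the groups were far apart, and the call held without each library in turn. Rps29 fell by 0.34 (SE 0.05, adjusted p = 4.7e-06), and Rpsa by 0.34 on its row (SE 0.06, adjusted p = 8.9e-05) and by 0.25 (SE 0.04, adjusted p = 1.7e-05) with copies summed. Rps16 fell by 0.46 on its row and by 0.33 (SE 0.05, adjusted p = 4.9e-06) with copies summed, Rpl39 by 0.37 and 0.14, Rpl27 by 0.51 and 0.14, and Rpl13 by 0.34 and 0.27. The row of Rpl13 lost its call without any 1 of the DMSO libraries (adjusted p of 0.060 to 0.15), those of Rps16 and Rpl27 without DMSO 1 day replicate 2 (-0.30 and -0.28), and those of Rps16 and Rpl39 without DMSO 3 days replicate 2 (-0.33 and -0.27). The members not called included Rpl3 at -0.09 (SE 0.04, adjusted p = 0.095), Rpl4 at -0.03, Rpl7 at -0.03, Rpl8 at 0.04 and Rps27a at 0.00. The DMSO libraries of 3 days are also those against which BML-260 for 3 days was set, and those of 1 day are the ones against which ISO was set. DMSO for 3 days had the lowest group mean in 68 of the 79 members with copies summed. The same count is not given over all genes, so it does not show a trait particular to the members.

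**Figure D4:**
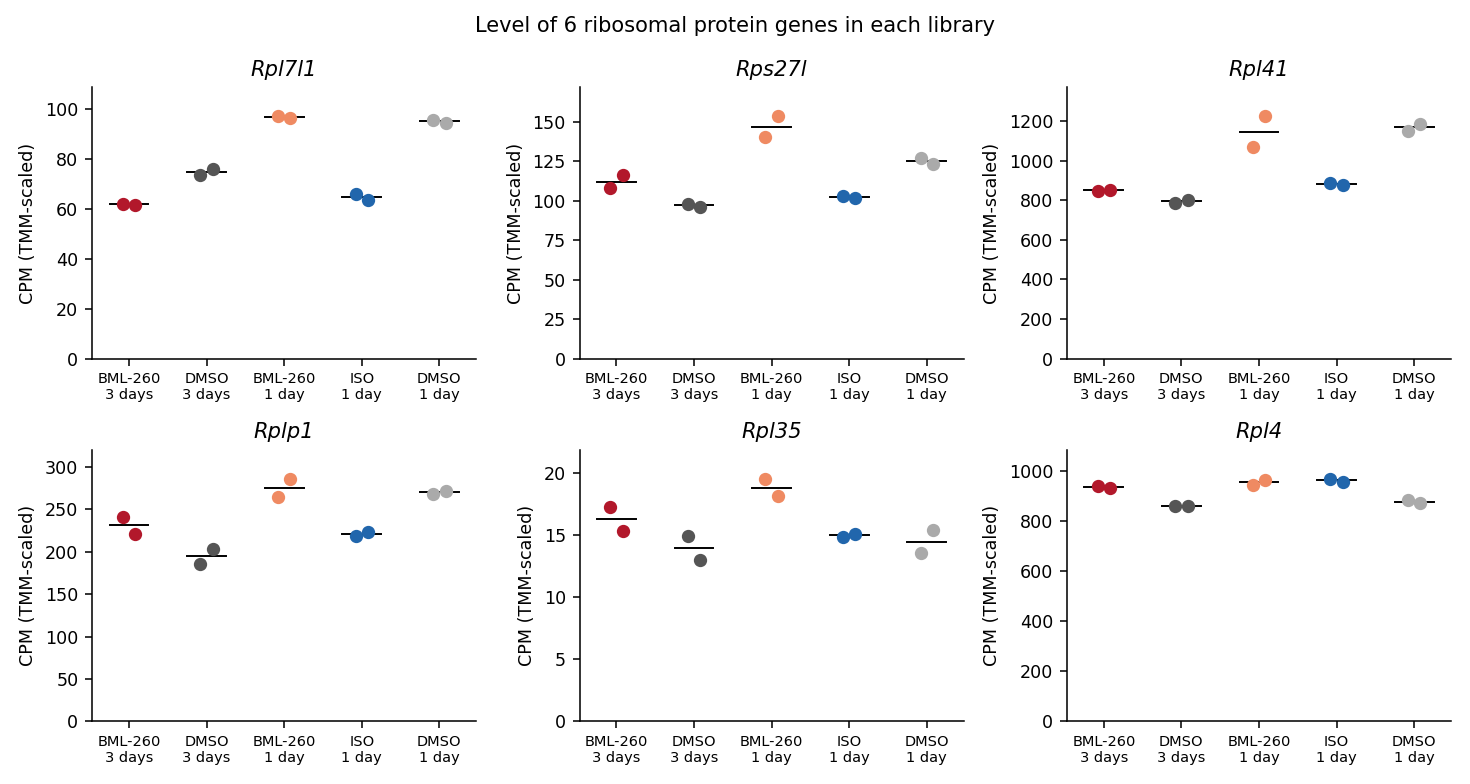
CPM of Rpl7l1, Rps27l, Rpl41, Rplp1, Rpl35 and Rpl4 in each library (points) with the mean of each group of 2 (line), every axis from 0. Rpl7l1 is lowest with BML-260 for 3 days and with ISO, while Rpl41 is lowest with DMSO for 3 days, at 788 and 800 CPM.

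In some comparisons the change went with the length of the coding sequence, among members and among other genes. Over 76 members with at least 10 CPM and copies summed, Spearman's rho between the log2 fold change and the coding length was 0.31 for DMSO over time, 0.36 for ISO against DMSO and -0.45 for BML-260 against ISO. For the effect of BML-260 over DMSO it was -0.04 at 1 day and 0.09 at 3 days. These are correlations across genes of the same libraries, and genes are not independent replicates. Over 9054 other coding genes with at least 10 CPM rho was 0.34, 0.21, -0.35, -0.27 and -0.14 in the same order. The 9 members under 300 coding bases had a median of -0.221 for DMSO over time, against -0.208 for 171 other genes of that length. Their medians were -0.155 against -0.164 with ISO, 0.103 against 0.095 for BML-260 at 3 days and 0.106 against 0.081 at 1 day. For DMSO over time the 27 members of 300 to 450 coding bases had a median of -0.14, against -0.17 for 387 other genes of that length. The 18 members of 450 to 600 bases had -0.15, against -0.12 for 530 other genes, and the 19 of 600 to 900 bases had -0.12, against -0.06 for 1209 other genes. With ISO the medians of these classes were -0.04 against -0.15, -0.03 against -0.06 and 0.00 against -0.01. For the BML-260 effect at 3 days they were 0.11 against 0.07, 0.14 against 0.07 and 0.14 against 0.05, and at 1 day 0.12 against 0.07, 0.12 against 0.08 and 0.11 against 0.06. The members thus had higher medians than other genes of like length in all of these classes under 900 bases for both BML-260 effects and for ISO, and over time in that of 300 to 450 bases only. The part of length in the results was not tested. Rpl7l1, with 738 coding bases, was the lowest of these members with ISO, at -0.55. The 1209 other genes of 600 to 900 bases had a median of -0.01 and ran from -1.18 to 2.18, so it lay within their range.

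**Figure D5:**
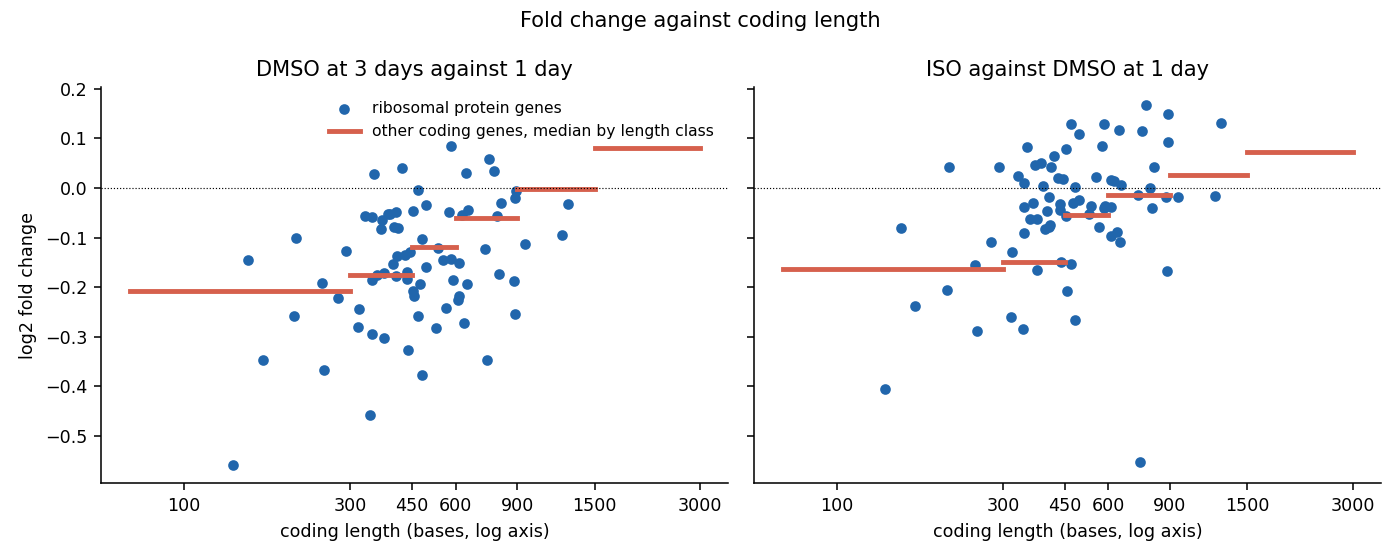
Log2 fold change of 76 ribosomal protein genes, copies summed, against coding length in bases (log axis), for DMSO at 3 days against 1 day and for ISO against DMSO at 1 day. Red lines give the median of other coding genes of at least 10 CPM in each length class; both sets are lowest among the shortest genes, and Rpl7l1 is the low point at -0.55 in the ISO panel.

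Other genes of the ribosome pathway were read from fixed lists, whose counts stand against the shares of all genes given above: 17.3% higher and 18.3% lower with BML-260 for 3 days, 9.32% and 8.62% at 1 day, 21.4% and 20.3% with ISO, and 18.1% and 16.8% with DMSO over time. Among ribosomal proteins outside the symbol rule, 3 of 5 tested rose with BML-260 for 3 days: Gnb2l1, the scaffold protein also called Rack1, by 0.20 (SE 0.05, adjusted p = 0.0013), Fau by 0.25 (SE 0.08, adjusted p = 0.014) and Rps3a1 by 0.20 (SE 0.07, adjusted p = 0.028). At 1 day 0 of the 5 were called.

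Among 19 translation factors and other mRNAs of the TOP type, 10 rose and 0 fell with BML-260 for 3 days, 6 rose and 0 fell at 1 day, 9 rose and 1 fell with ISO, and 5 rose and 0 fell with DMSO over time. The shares that rose were 52.6%, 31.6%, 47.4% and 26.3%. Their medians were 0.13, 0.08, 0.10 and 0.03 on the log2 scale. Eef1g, a subunit of elongation factor 1, rose by 0.25 (SE 0.04, adjusted p = 2.9e-05) with BML-260 for 3 days, by 0.19 (SE 0.04, adjusted p = 0.002) at 1 day and by 0.20 (SE 0.04, adjusted p = 0.00034) with ISO. Eif4b, a cofactor of the helicase that unwinds mRNA leaders, rose by 0.39 (SE 0.04, adjusted p = 2.2e-08) with ISO and by 0.30 (SE 0.04, adjusted p = 2.1e-06) with DMSO over time.

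The 5 tested snoRNA host genes, whose spliced RNAs begin with the same pyrimidine run, rose in all 5 cases with BML-260 for 3 days, in 2 at 1 day, in 5 with ISO and in 4 with DMSO over time. Snhg1 rose by 0.38 (SE 0.06, adjusted p = 1.6e-05) with BML-260 for 3 days, by 0.78 (SE 0.07, adjusted p = 4.8e-10) with ISO and by 0.70 (SE 0.07, adjusted p = 5e-09) with DMSO over time. Gas5 rose by 0.35 (SE 0.05, adjusted p = 2.8e-06), 0.45 (SE 0.05, adjusted p = 6.7e-08) and 0.23 (SE 0.05, adjusted p = 0.0011) in the same comparisons and by 0.24 (SE 0.05, adjusted p = 0.0017) with BML-260 for 1 day. Against ISO, 4 of the 5 were lower with BML-260 for 1 day, where 22.8% of all genes were called lower.

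Of 38 tested ribosome biogenesis genes, 16 rose and 0 fell with BML-260 for 3 days, 11 rose and 0 fell at 1 day, 13 rose and 4 fell with ISO, and 14 rose and 5 fell with DMSO over time. The shares that rose were 42.1%, 28.95%, 34.2% and 36.8%. Gnl3, nucleostemin, rose by 0.72 (SE 0.06, adjusted p = 1.5e-10) with BML-260 for 3 days, 0.42 (SE 0.07, adjusted p = 4.2e-05) at 1 day, 0.89 (SE 0.06, adjusted p = 1.5e-11) with ISO and 0.67 (SE 0.06, adjusted p = 7.3e-09) with DMSO over time. Nhp2, a core protein of the H/ACA snoRNPs, rose with BML-260 by 0.37 (SE 0.07, adjusted p = 0.00012) at 3 days and 0.27 (SE 0.07, adjusted p = 0.0036) at 1 day, and fell by 0.44 (SE 0.07, adjusted p = 9.1e-06) with ISO and by 0.50 (SE 0.07, adjusted p = 2.4e-06) with DMSO over time. Of 14 RNA polymerase I genes 2 rose and 1 fell at 3 days and 3 rose and 0 fell at 1 day with BML-260, 3 rose and 2 fell with ISO, and 5 rose and 1 fell with DMSO over time. The shares that rose at 3 days (14.3%) and with ISO (21.4%) lie near those of all genes. Ubtf, which opens the ribosomal DNA for this polymerase, fell by 0.26 (SE 0.05, adjusted p = 0.00016) with BML-260 for 3 days and by 0.23 (SE 0.05, adjusted p = 0.0004) with ISO. The row of the ribosomal RNA precursor, Rn45s, had 569 and 330 CPM with BML-260 for 1 day, against 394 and 268 CPM with DMSO, so the groups overlapped. Its log2 fold change of 0.44 (SE 0.15, adjusted p = 0.040) came to 0.00 without BML-260 1 day replicate 1 and to 0.19 (adjusted p = 0.57) without DMSO 1 day replicate 2, and DESeq2 gave an adjusted p of 0.47. The row was at 0.16 (SE 0.15, adjusted p = 0.45) at 3 days.

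Of 21 genes of mTORC1 signalling and its control of TOP mRNAs, 9 rose and 2 fell with BML-260 for 3 days, 2 rose and 3 fell at 1 day, 4 rose and 6 fell with ISO, and 4 rose and 7 fell with DMSO over time. The shares that rose were 42.9% at 3 days, 9.52% at 1 day and 19.05% both with ISO and over time, the last 3 near those of all genes. This nearness holds for the rises only. The falls, 2, 3, 6 and 7 of 21 in the same order, stand against 18.3%, 8.62%, 20.3% and 16.8% of all genes. Rheb, the GTPase that activates mTORC1, rose by 0.27 (SE 0.05, adjusted p = 7.9e-05) at 3 days and by 0.17 (SE 0.05, adjusted p = 0.015) at 1 day with BML-260. Eif4ebp1, a translation repressor that mTORC1 inactivates, rose by 0.28 (SE 0.05, adjusted p = 4.7e-05) at 3 days. Ddit4, a stress-induced inhibitor of mTORC1, fell by 0.28 (SE 0.06, adjusted p = 0.0016) with BML-260 for 1 day and rose by 0.77 (SE 0.06, adjusted p = 2.7e-11) with ISO. Its BML-260 effect at 3 days was 0.49 above that at 1 day (SE 0.08, adjusted p = 0.00039).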

How the data were processed

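The table deposited by the authors holds raw counts for 24640 gene symbols in 10 libraries, and further deposited lists give genes with a log2 fold change and adjusted p-value (file headers). The submitters' processing notes name TopHat2 2.1.1, DESeq2, bedtools and also bcl2fastq 2.17.1.14, with no roles. The labels name no strandedness, annotation or counting rule. Members and lists were chosen with earlier results of these data known.

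Counts were analysed with edgeR 4.0.16 in R 4.3.3 (TMM scaling, filterByExpr with minimum count 10 and minimum total 15, quasi-likelihood test). Each group had its own mean in 1 model of the 10 libraries, with 5 residual degrees of freedom, and p-values were adjusted by Benjamini-Hochberg over 15212 genes. The script was tested on simulated data. SE was taken as |log2 fold change| over √F. The common coefficient of variation was 3.39%. CPM uses TMM-scaled library sizes.

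Copies were rows annotated as pseudogenes that BLAST+ 2.17.0 aligned to a member's GENCODE M21 coding sequence at 80% identity or more over 50% or more of it. By symbol 21904 rows matched GENCODE. The sum with copies (15009 genes tested) was chosen after seeing the data. The exons of 38 members overlap another gene's, on the opposite strand in 20. Members named are the P stalk, Rpsa, Rps6, Rpl3, Rpl5, Rpl11, Rps27a, paralogs ending in l or l1 with their counterparts, up to 8 called higher and 8 called lower of largest change per comparison (10 CPM or more in the higher group), and the 3 most and 3 least abundant per kb. Others named with values were picked after these were seen. Lists name up to 4 genes of smallest p. A few genes that these rules would name are not reported here. Alternatives were DESeq2 1.42.0, other scalings, no filter, only the groups compared, a replicate block, added members and leaving out each library.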

Additional observations from a re-analysis of the deposited data

Results flagged for a closer look

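The BML-260 effect at 3 days differed from that at 1 day, by a test of the difference itself, for Rpl7l1 at -0.30 on the log2 scale, on its row and equally at -0.30 with copies summed. With copies summed the members called also included Rpl39 at -0.22 and Rps16 at 0.22. Both have most of their counts in pseudogene rows, were not called on their rows alone, and lost the call with copies summed without any 1 of 6 of the 10 libraries.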

How the results depend on the processing

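The members' median kept its sign under every alternative run for BML-260 against DMSO at 3 days (0.085 to 0.165) and 1 day (0.050 to 0.119), BML-260 against ISO (0.086 to 0.156) and DMSO over time (-0.166 to -0.113). Counts of members called moved more. For BML-260 at 1 day 32 were higher with copies summed, 11 with library totals and 10 with only the groups compared. At 3 days library totals and upper-quartile scaling both gave 17. For the difference of these effects, 3 were higher with DESeq2 size factors, with no filter and with only the groups compared, and 2 with copies summed and with the replicate block; 0 were lower by DESeq2 and 2 with copies summed, library totals, upper-quartile scaling and the block. With ISO upper-quartile scaling gave 3 higher and 24 lower and DESeq2 gave 8 lower. For BML-260 against ISO 0 were lower by DESeq2, with copies summed, with no filter and with only the groups compared. Over time library totals gave 1 higher. Of all genes DESeq2 called 767 lower at 1 day, 1670 lower at 3 days and, for the difference, 365 higher and 295 lower, while only the groups compared gave 926 higher. Leaving out 1 library gave, at 1 day, 5 to 18 members higher and 0 to 1 lower and 608 to 1537 genes higher and 627 to 1335 lower; at 3 days 17 to 39 members higher and 1713 to 2819 genes lower; for the difference 0 to 7 members higher and 0 to 2 lower and 272 to 650 genes higher and 307 to 731 lower; with ISO 2 to 6 members higher and 6 to 15 lower; for BML-260 against ISO 16 to 37 higher and 0 to 2 lower; over time 24 to 38 lower. With copies summed the same gave 18 to 43 higher at 3 days, 7 to 36 at 1 day, 0 to 8 higher and 1 to 3 lower for the difference, 2 to 8 higher and 9 to 16 lower with ISO, 29 to 49 higher for BML-260 against ISO, and 27 to 48 lower over time. Among named members called with copies summed, the sum turned the sign of the row for Rpl10 (0.13) and Rpl27 (0.15) at 1 day, Rpl39 (-0.22) in the difference, Rps6 (0.12) with ISO and Rpl23a (-0.26) over time. The share of counts was 1.97%, 1.87%, 2.11%, 1.95% and 2.03% with 5 further ribosomal proteins, 2.73%, 2.60%, 2.93%, 2.71% and 2.81% with named pseudogenes, and 3.70%, 3.52%, 3.99%, 3.67% and 3.82% with copies, for BML-260 3 days, DMSO 3 days, BML-260 1 day, ISO and DMSO 1 day. Deviations of replicate 1 were not shared between groups (correlations from -0.0344 to 0.0577). The labels do not say if libraries of the same number were paired, and the correlations cannot settle it. With the replicate block 18 members were higher at 1 day, 37 at 3 days and 38 lower over time.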
